A study of Mus musculus with 18 samples.

Results

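The 9 complement genes C1qa, C1qb, C1qc, C1ra, C1s1, C2, C3, C4b and C3ar1 were followed by gene symbol through RNA-seq count tables of 25124 genes from 3 adipose depots of mice lacking caspase-6 (C6KO) and wildtype (WT) mice. All 9 were present in each table, with the same transcript in the 3 tables, and all 9 passed the filter on low counts in each depot. The depots were 2 white ones, inguinal (iWAT) and epididymal (eWAT), and the brown fat (BAT). Each combination of depot and genotype had 3 libraries, which gave 18 libraries together. The mice were males on a C57BL/6J background that began a 60% high fat diet (HFD) at 10 to 14 weeks of age and stayed on it for 12 weeks, and the WT and C6KO mice were littermates from crosses of heterozygotes. The knockout is global, so macrophages, stromal cells and liver lack caspase-6 as well as adipocytes, and both genotypes ate HFD, with no chow-fed group among these libraries. The labels call the libraries biological replicates and do not tie those of one mouse together across depots.

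Complement is a cascade of plasma proteins that marks targets for clearance. In the classical pathway the recognition protein C1q, built from A, B and C chains, carries the serine proteases C1r and C1s, which cleave C4 and C2 into the convertase that splits C3. The C3a fragment is read by the receptor C3aR1 and the C3b fragment is amplified by factor B and factor D of the alternative pathway, factor D being adipsin, a classical secreted product of adipocytes. C1q chains are made chiefly by tissue macrophages, C1r, C1s, C4 and C3 by fibroblast-like stromal cells and hepatocytes, and C3aR1 is abundant on myeloid cells. The 9 genes were therefore read as macrophage-associated genes (C1qa, C1qb, C1qc and C3ar1) and stromal genes (C1ra, C1s1, C2, C3 and C4b), a division taken from this background and not from the libraries. C2, whose source is not named above, was placed with the stromal genes.

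On mm10 the C1q genes lie side by side on chromosome 4, on the minus strand: C1qb at chr4:136880126-136886200, C1qc at chr4:136889802-136892914 and C1qa at chr4:136895916-136898844, separated by 3.60 and 3.001 kb. C1ra (chr6:124512621-124523440, plus strand) and C1s1 (chr6:124530344-124542321, minus strand) are 6.90 kb apart. C4b (chr17:34728381-34743897) and C2 (chr17:34862602-34882100) are 119 kb apart on the minus strand of chromosome 17, with C3 on the same strand at chr17:57203967-57228136, and C3ar1 is at chr6:122847140-122856157 on the minus strand. Because C1qc and C3ar1 fell in BAT while C3 rose there, the 250 bases before the annotated start of these genes, and of C1qb beside C1qc, are shown from RefSeq on GRCm38.p6, the build of mm10, 5′ to 3′ on the strand of the gene. C1qa, C2 and C4b were not matched among the 6 of 9 genes with an entry. Capitals mark GAGGAAG, a core of the motif bound by the myeloid factor PU.1, or its reverse complement.
C1qb, chr4:136886201-136886450, minus strand: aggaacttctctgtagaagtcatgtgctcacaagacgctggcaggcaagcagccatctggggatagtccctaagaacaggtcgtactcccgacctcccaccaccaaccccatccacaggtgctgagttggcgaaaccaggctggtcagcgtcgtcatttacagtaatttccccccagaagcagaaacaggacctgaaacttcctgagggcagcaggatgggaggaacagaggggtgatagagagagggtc
C1qc, chr4:136892915-136893164, minus strand: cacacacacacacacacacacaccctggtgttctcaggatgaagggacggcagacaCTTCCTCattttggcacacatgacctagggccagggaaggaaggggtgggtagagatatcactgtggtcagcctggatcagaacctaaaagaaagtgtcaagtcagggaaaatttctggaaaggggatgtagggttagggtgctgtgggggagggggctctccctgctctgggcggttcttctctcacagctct
C3, chr17:57228137-57228386, minus strand: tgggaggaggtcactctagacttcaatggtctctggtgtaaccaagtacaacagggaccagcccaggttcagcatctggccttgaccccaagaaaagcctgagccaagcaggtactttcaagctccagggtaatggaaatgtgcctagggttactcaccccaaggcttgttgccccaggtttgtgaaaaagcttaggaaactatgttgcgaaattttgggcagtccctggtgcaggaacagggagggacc
C3ar1, chr6:122856158-122856407, minus strand: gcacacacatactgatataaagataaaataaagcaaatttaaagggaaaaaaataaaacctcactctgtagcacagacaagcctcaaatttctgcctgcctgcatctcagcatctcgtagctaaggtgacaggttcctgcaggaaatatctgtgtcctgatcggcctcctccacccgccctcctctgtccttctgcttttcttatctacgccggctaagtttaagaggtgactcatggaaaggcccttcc
The PU.1 core was searched on both strands, together with TTGCNNCAA (C/EBP), TTCNNNGAA (STAT) and an interferon-stimulated element read by IRF factors. Among the 6 windows the only match was the PU.1 core in C1qc, on the reverse strand and beginning 194 bases before the start. Over 32817 promoter windows of that length, 10.6% held the PU.1 core, 1.74% the C/EBP letters, 2.97% the IRF element and 7.01% the STAT letters. A match is a run of letters and not a measured site.

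Total counts per library were 16506034 to 19043523 for iWAT, 16717201 to 19139694 for eWAT and 7803108 to 12428683 for BAT, so the BAT values rest on fewer reads. Casp6 was lower in C6KO without overlap in each depot, at 18.7 ± 2.27 against 6.55 ± 1.27 CPM (counts scaled to library size) in iWAT, 20.5 ± 2.26 against 5.65 ± 1.22 in eWAT and 14.6 ± 3.82 against 5.12 ± 1.93 in BAT (mean ± SD, n = 3). The decrease was called in eWAT (edgeR adjusted p = 0.0132) and had adjusted p = 0.0751 in iWAT and 0.0671 in BAT. Reads remained in C6KO, and the exons the allele lacks are not given in the sources used here. The tissues carried their defining markers: 6 adipocyte markers summed to between 8848 and 30029 CPM over the 18 libraries, and 6 brown adipocyte markers to between 6649 and 14806 CPM in BAT and at most 112 CPM in the white depots. C6KO replicate 3 in iWAT stood apart from the other C6KO libraries, with 10 macrophage markers summing to 1149 CPM against 414 and 435. WT replicate 2 in BAT stood apart from the other WT libraries, with 5 B cell markers at 81.4 CPM against 3.10 and 2.899 and 10 progenitor markers at 2183 CPM against 1595 and 1368, and the brown adipocyte markers at 6649 CPM against 14806 and 10012. Values without each of these libraries are given where they change a result. The iWAT library was singled out by markers that vary with the C1q genes and C3ar1, so fits without it are descriptions.

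In WT mice eWAT was the depot richest in most of these transcripts and BAT the poorest. On the scale of the fit of all 18 libraries, and per kb of transcript so that genes can be compared, the mean WT level in eWAT was 912 ± 210 CPM per kb for C1qb (SD, n = 3), 815 ± 161 for C1qc, 653 ± 168 for C1qa, 560 ± 99.8 for C3, 226 ± 18 for C4b, 153 ± 22.7 for C1s1, 128 ± 8.16 for C3ar1, 48.1 ± 9.12 for C1ra and 35.7 ± 6.13 for C2. Neighbours in this order differed by less than the sum of their SDs, except that C4b stood below C3 and above C1s1, and C3ar1 above C1ra, by more. In iWAT the order changed at the top: C4b led with 317 ± 44.8 CPM per kb, ahead of C1qb (254 ± 18.6), C1qc (223 ± 27.6) and C1qa (196 ± 27.9), and C3 followed with 136 ± 23.5. C1s1 (95.1 ± 5.33) came next in iWAT, and C3ar1 (32.1 ± 4.91), C2 (25.5 ± 2.39) and C1ra (25.1 ± 1.64) followed, with C2 differing from each of its neighbours by less than the sum of their SDs. In BAT the C1q chains (89.4 ± 18.9 to 111 ± 37.0) and C3 (103 ± 17.3) lay within each other's spread, followed by C1s1 at 44.5 ± 7.36, C4b at 24.3 ± 15.2, C3ar1 at 10.6 ± 2.14, C1ra at 9.11 ± 3.10 and C2 at 4.09 ± 0.877 CPM per kb. In bulk tissue fewer cells of a type and less RNA per cell cannot be told apart, which holds for every result given here.

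The depots were compared by edgeR in one fit, where a gene was called at an adjusted p below 0.05 and a fold of at least 1.5. Between WT eWAT and WT iWAT, 7 of the 9 genes were called higher in eWAT and none lower, against 12.8% of 15866 genes called higher and 12.9% lower. The called genes were C3 (4.12-fold, adjusted p = 1.23e-05), C3ar1 (3.97-fold, 0.00285), C1qc (3.65-fold, 0.000613), C1qb (3.60-fold, 0.000963), C1qa (3.33-fold, 0.000904), C1ra (1.92-fold, 0.0103) and C1s1 (1.61-fold, 0.00497). C2 (1.40-fold higher, adjusted p = 0.232) and C4b (1.40-fold lower, 0.285) were not called. C1ra lost its call without eWAT WT replicate 2 (log2 difference 0.79, adjusted p = 0.0515). The same 5 macrophage and protease genes, along with C3ar1, C2 and C4b, made 8 of 9 genes called lower in BAT than in iWAT and none higher, against 18.7% and 20.1% of genes. C4b differed most, at 13-fold (adjusted p = 8.28e-07), C2 was 6.22-fold lower, and C3, the exception, was 1.32-fold lower with adjusted p = 0.136. All 9 were called lower in BAT than in eWAT, against 23.6% of genes lower and 25% higher, from 3.44-fold for C1s1 to 12-fold for C3ar1. These 3 contrasts share libraries and are not independent.

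**Figure D1:**
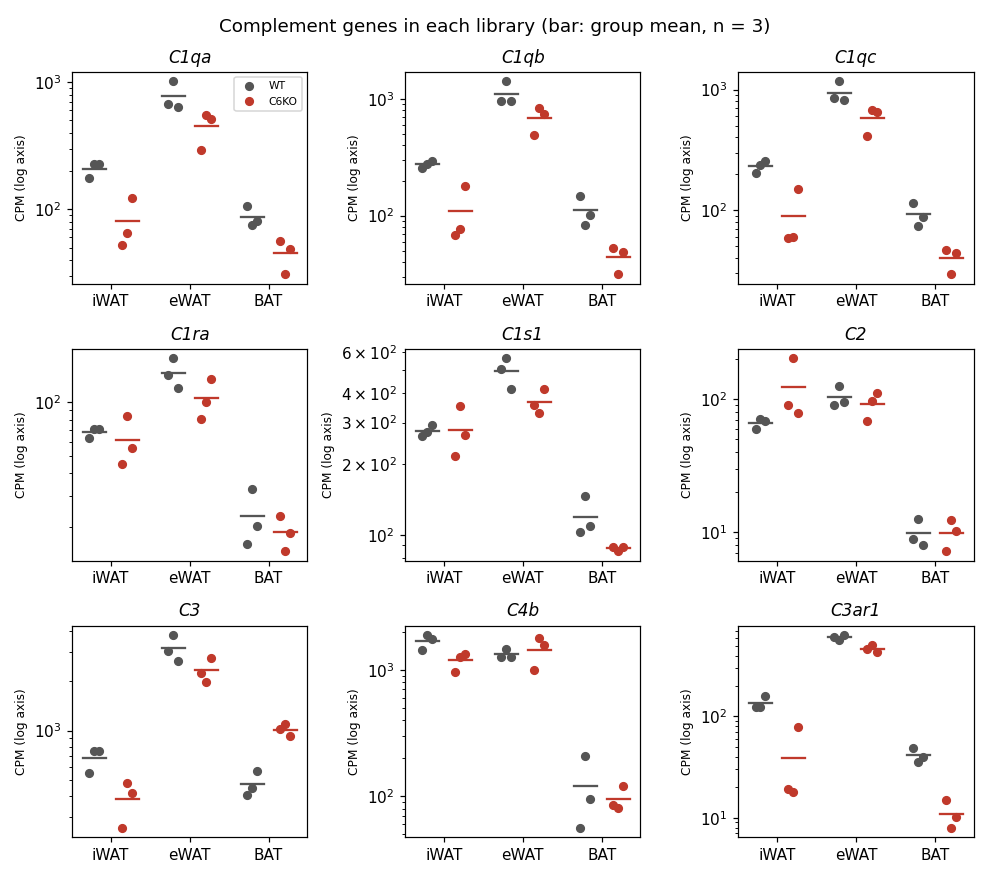
Normalised counts scaled to library size (CPM, log axis) of the 9 complement genes in each of the 18 libraries, grouped by depot, with WT in grey, C6KO in red and a bar at each group mean (n = 3). The C1q genes and C3ar1 have C6KO points below all WT points in each depot, whereas C3 has its C6KO points below WT in iWAT and above WT in BAT.

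The C1q chains were lower in C6KO than in WT in each depot, with no overlap between the groups. In iWAT C1qa was at 175, 227 and 226 CPM in WT and at 52.4, 64.7 and 123 CPM in C6KO. C1qb was at 255, 278 and 295 CPM in WT and at 68.6, 77.1 and 179.9 CPM in C6KO, and C1qc was at 201, 237 and 258 CPM in WT and at 59.2, 59.3 and 149 CPM in C6KO. In each gene C6KO replicate 3 lay nearer to WT than its group mates. The log2 fold changes were -1.38 ± 0.31 for C1qa (SE, adjusted p = 0.158), -1.35 ± 0.36 for C1qb (0.181) and -1.38 ± 0.38 for C1qc (0.184), so none was called by edgeR in iWAT. In eWAT C1qa was at 671, 1013 and 644 CPM in WT and at 294, 549 and 515 CPM in C6KO, a log2 fold change of -0.78 ± 0.27 (adjusted p = 0.195). C1qb (952, 1409.9 and 956 against 488, 839 and 748 CPM) and C1qc (843, 1166 and 821 against 413, 680.4 and 645 CPM) had log2 fold changes of -0.68 ± 0.23 (0.178) and -0.70 ± 0.21 (0.137). The highest WT and the lowest C6KO library in eWAT were the same ones for each chain.

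In BAT C1qc fell, from 114, 73.9 and 88.1 CPM in WT to 46.8, 29.4 and 44.3 CPM in C6KO, a log2 fold change of -1.20 ± 0.23 (adjusted p = 0.0431). C1qb went from 148, 82.5 and 102 CPM to 52.9, 31.6 and 48.6 CPM, with -1.32 ± 0.26 and adjusted p = 0.0546, just outside the threshold, and C1qa from 105, 75.5 and 81.4 CPM to 56.1, 30.9 and 48.8 CPM, with -0.95 ± 0.23 and 0.0995. The call of C1qc was lost when WT replicate 1, WT replicate 3 or any C6KO library was left out, with log2 fold changes between -0.99 and -1.29 and adjusted p of 0.0992 to 0.191. Without WT replicate 2 C1qc was called (adjusted p = 0.0201), and so was C1qb (0.0209). C1qb was also called with no filter on low counts (0.0320), with at least 10 counts (0.0462) and in the fit of all 18 libraries (0.0458). With the replicate number as a block its adjusted p was 0.0191, but those numbers were not taken to pair WT with C6KO libraries.

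C3ar1, which encodes the C3a receptor, had the steepest estimates in iWAT and BAT. In iWAT it was at 125, 124 and 161 CPM in WT and at 19.2, 17.8 and 78.7 CPM in C6KO, with C6KO replicate 3 again nearest to WT. Its log2 fold change there was -1.83 ± 0.59 (adjusted p = 0.221). In eWAT, where its level was highest, it was at 609.6, 565 and 636 CPM in WT and at 462, 509 and 434 CPM in C6KO. The groups did not overlap, but the log2 fold change was -0.37 ± 0.11 (adjusted p = 0.133). In BAT C3ar1 fell from 49.1, 35.2 and 40.2 CPM to 14.9, 7.95 and 10.1 CPM, a 3.78-fold decrease (log2 fold change -1.92 ± 0.25, adjusted p = 0.00999). It lost its call in BAT without C6KO replicate 2 (adjusted p = 0.0589) or C6KO replicate 3 (0.0774).

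C1ra and C1s1, the genes of the C1q-bound proteases, overlapped between genotypes in iWAT and eWAT. In iWAT C1s1 was at 262, 274 and 293 CPM in WT and at 217, 352 and 267 CPM in C6KO, a log2 fold change of 0.01 ± 0.18 (adjusted p = 0.980), and C1ra was at 63.2, 70.6 and 70.9 CPM against 45.4, 83.4 and 55.7 CPM, a log2 fold change of -0.15 ± 0.21 (0.757). For both genes C6KO replicate 2 was the highest library and C6KO replicate 1 the lowest. In eWAT the log2 fold changes were -0.43 ± 0.14 for C1s1 (509, 563 and 416 against 357, 329.9 and 417 CPM, adjusted p = 0.156) and -0.47 ± 0.21 for C1ra (142, 176 and 119.6 against 81.0, 100.2 and 134 CPM, 0.283). In BAT C1s1 was at 103, 147 and 109 CPM in WT and at 89.1, 85.3 and 89.1 CPM in C6KO, with no overlap, a log2 fold change of -0.44 ± 0.17 and adjusted p = 0.296. C1ra in BAT was at 16.2, 32.6 and 20.2 CPM in WT and at 23.1, 14.7 and 18.6 CPM in C6KO (-0.30 ± 0.28, 0.714), and its estimate changed sign to 0.04 without WT replicate 2. Reads of these 2 genes are uncertain in part, since 50.8% of the 50-base windows of the C1ra transcript also occur in other genes, chiefly C1rb, and 24.3% of those of C1s1 in C1s2. C1rb and C1s2 had group means of at most 2.14 CPM in these tables.

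C3, on which all complement pathways converge, was the only one of the 9 genes that edgeR called higher in any depot. In BAT it went from 411, 453 and 567 CPM in WT to 1019, 1093 and 931 CPM in C6KO, 2.13-fold higher (log2 fold change 1.09 ± 0.19, adjusted p = 0.0306). The lowest C6KO library stood well above the highest WT library. In iWAT the order was opposite, at 551, 757 and 751 CPM in WT and 259, 483 and 422 CPM in C6KO, with no overlap, -0.82 ± 0.24 and adjusted p = 0.183, and in eWAT the groups overlapped at 3035, 3767 and 2629 against 2233, 1956 and 2737 CPM (-0.45 ± 0.18, 0.237). The call in BAT held without WT replicate 2 (adjusted p = 0.0327) and was lost when any other library was left out, with log2 fold changes of 1.02 to 1.27 and adjusted p of 0.0517 to 0.178. Hepatocyte markers (Alb and Apoa2 the highest of 6) summed to 7.05 to 7.80 CPM in WT and 9.22 to 11.5 CPM in C6KO in BAT. The number of these markers at 0 counts was 4, 3 and 4 in the WT libraries and 3, 0 and 0 in the C6KO libraries. Only 1 of them passed the filter in BAT. The 6 adipocyte markers summed to 13786 to 21964 against 15921 to 18364 CPM. The part of either marker list in the result was not tested.

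C2 and C4b, whose products form the classical C3 convertase, were called in no depot. In iWAT C2 was at 59.5, 70.9 and 68.7 CPM in WT and at 90.7, 203 and 78.5 CPM in C6KO, above WT without overlap (log2 fold change 0.90 ± 0.36, adjusted p = 0.277). C6KO replicate 2 carried most of that difference, and without it the log2 fold change was 0.35. C2 overlapped between genotypes in eWAT (90.9, 125 and 94.5 against 68.8, 96.1 and 112 CPM, -0.17 ± 0.19) and in BAT, where it was low (8.92, 12.5 and 8 against 7.21, 12.3 and 10.1 CPM, 0.01 ± 0.27). In iWAT C4b was at 1423, 1877 and 1735 CPM in WT and at 966, 1268 and 1328 CPM in C6KO, below WT without overlap, with -0.50 ± 0.18 and adjusted p = 0.234. In eWAT it overlapped (1272, 1469 and 1267 against 993, 1778 and 1559.5 CPM, 0.11 ± 0.20). In BAT C4b was at 56.5, 208 and 95.2 CPM in WT and at 85.0, 81.6 and 121 CPM in C6KO, and its estimate of -0.32 ± 0.50 became 0.34 without WT replicate 2, the library at 208 CPM. Of the 50-base windows, 35.2% of C4b also occur in C4a and 58.0% of C2 in Gm20547, so counts of both are uncertain in part. C4a was at group means of 0.697 to 1.91 CPM.

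**Figure D2:**
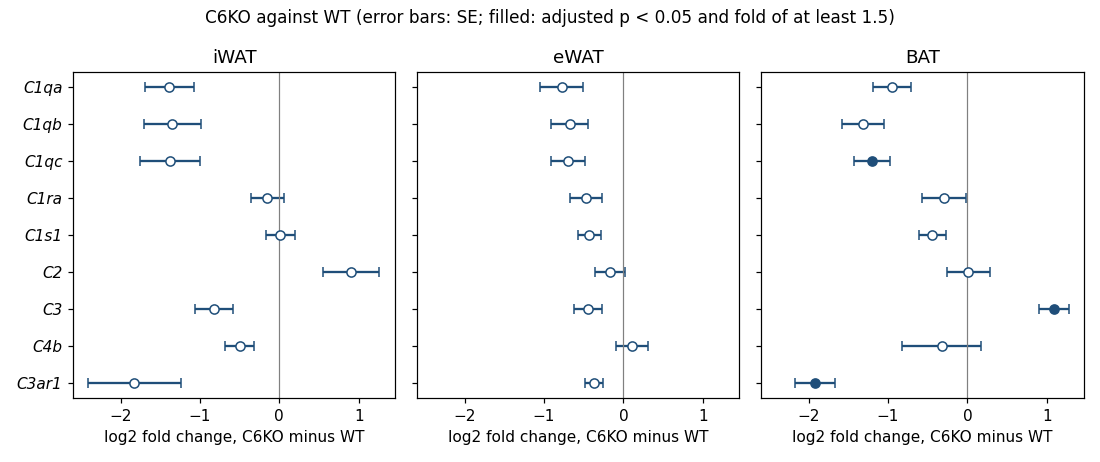
Log2 fold change of C6KO against WT for the 9 complement genes in iWAT, eWAT and BAT, with the SE as error bars and filled points for called genes. The filled points are C1qc and C3ar1 below 0 and C3 above 0, all in BAT, while C1ra, C1s1, C2 and C4b have open points in each depot.

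Counted over the 9 genes, edgeR called none in iWAT, where 0.0206% of genes were called lower and 0.00688% higher. At an unadjusted p below 0.05 and a fold of at least 1.5, 5 were lower and 1 higher in iWAT (6.72% and 2.61% of genes), and DESeq2 called 4 lower (3.53% of genes), the C1q chains and C3, and none higher (1.18%). Without C6KO replicate 3, edgeR called 4 lower in iWAT, the C1q chains (log2 fold changes -1.86 to -1.99) and C3ar1 (-2.91), against 6.43% of genes. That library was the C6KO library nearest to WT in these 4 genes, so leaving it out enlarges their estimates and gives no separate evidence. In eWAT edgeR called none (0.208% and 0.537% of genes called lower and higher), 3 were lower and none higher at an unadjusted p below 0.05 and a fold of at least 1.5 (2.79% and 4.2%), and DESeq2 called those 3 C1q chains lower (1.22%) and none higher (2.77%), with C3ar1 at adjusted p = 0.0323 but under the fold. In BAT edgeR called 2 lower and 1 higher (1.07% and 0.169%), 4 were lower and 1 higher at an unadjusted p below 0.05 and a fold of at least 1.5 (6.27% and 2.62%), and DESeq2 called 4 lower, the C1q chains and C3ar1, and C3 higher (2.62% and 1.05%). Without WT replicate 2, edgeR called 3 lower and 1 higher in BAT (1.05% and 0.24%). Non-overlap with C6KO below held for 6 of 9 genes in iWAT (12.2% of genes), 4 in eWAT (11.2%) and 5 in BAT (12.1%), and non-overlap with C6KO above for 1 in iWAT (10.9%), none in eWAT (12%) and 1 in BAT (8.07%). In iWAT the median log2 fold change of the 9 genes was -0.82 against 0.03 over all genes tested, in eWAT -0.45 against -0.01, and in BAT -0.44 against -0.03.

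C3 was also the only one of the 9 genes whose C6KO effect differed between depots by the interaction test. The log2 fold change of C3 in BAT exceeded that in iWAT by 1.90 ± 0.31 (adjusted p = 0.0122, 0.0693% of 15866 genes called positive), and that in eWAT was below that in BAT by a difference of -1.53 ± 0.31 (adjusted p = 0.0340, 0.0504% called negative). At an unadjusted p below 0.05, 9.93% and 11.2% of genes passed these contrasts, and DESeq2 called 1.31% and 2.5%. Without iWAT WT replicate 3 the first difference was 1.84 with adjusted p = 0.0543. The second was called in 7 of the 18 fits that left out 1 library. Between eWAT and iWAT, edgeR called none of the 9 genes and none of all genes (5.48% at an unadjusted p below 0.05, and 0.0866% by DESeq2), so the smaller C1q estimates in eWAT than in iWAT (differences of 0.61 to 0.67) were not distinguishable there. For C3ar1 the difference of 1.45 ± 0.60 had adjusted p = 0.890. It became 2.53 with adjusted p = 0.000239 without iWAT C6KO replicate 3, the C6KO library nearest to WT in C3ar1 in that depot.

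The C1q genes were set against the 5 stromal genes as the difference of their mean log2 CPM in each library, as a description with no test. This difference was -0.19 ± 0.04 in WT and -1.52 ± 0.84 in C6KO in iWAT (SD, n = 3), 0.88 ± 0.13 and 0.44 ± 0.27 in eWAT, and 0.52 ± 0.73 and -0.70 ± 0.40 in BAT. C6KO lay below WT without overlap in all 3 depots, with differences of -1.33, -0.44 and -1.22. The C1q mean itself differed by -1.49, -0.74 and -1.16 (C6KO minus WT), and the stromal mean by -0.16, -0.29 and 0.06. The ratio of C1qb to C1qa per kb was 1.30 ± 0.11 in WT and 1.29 ± 0.13 in C6KO in iWAT, and 1.40 ± 0.05 and 1.52 ± 0.10 in eWAT. In BAT this ratio was 1.22 ± 0.15 in WT and 0.967 ± 0.039 in C6KO.

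Macrophage markers moved with the C1q genes. The 10 markers (Lyz2 and Cd68 the highest) summed to 1483 to 1679 CPM in WT and 414 to 1149 CPM in C6KO in iWAT, 5320 to 6535 and 3579 to 4417 CPM in eWAT, and 599 to 725 and 248 to 352 CPM in BAT, with no marker at 0 counts in any library. The number of markers with a lower estimate was 10 of 10, 9 of 10 and 8 of 10. Lower calls numbered 0, 0 and 3 by edgeR (0.0206%, 0.208% and 1.07% of all genes). By DESeq2 they numbered 4, 2 and 7 (3.53%, 1.22% and 2.62%). At an unadjusted p below 0.05 and a fold of at least 1.5, 8, 3 and 7 were lower (6.72%, 2.79% and 6.27%). When the mean log2 CPM of these markers was subtracted from that of the C1q genes, the C6KO values differed from WT by -0.14 in iWAT (1.52 ± 0.09 against 1.38 ± 0.09), by -0.27 in eWAT (1.73 ± 0.19 against 1.46 ± 0.27) and by -0.24 in BAT (1.54 ± 0.27 against 1.30 ± 0.26). Before the subtraction the differences were -1.49, -0.74 and -1.16. For iWAT, C3ar1 minus the same markers was 0.72 ± 0.08 in WT and -0.11 ± 0.45 in C6KO. The pair of values was 1.13 ± 0.21 and 1.23 ± 0.18 for eWAT and 0.34 ± 0.18 and -0.68 ± 0.34 for BAT, and the genotypes did not overlap in iWAT or BAT.

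The 10 fibroblast and adipocyte progenitor markers (Col3a1 and Dcn the highest) were lower in C6KO as well, at 6102 to 6168 CPM in WT and 2768 to 4734 CPM in C6KO in iWAT, 8027 to 9893 and 6245 to 7676 CPM in eWAT, and 1368 to 2183 and 870 to 1117 CPM in BAT. Their estimates were lower for 9 of 10 in each depot, with 0, 0 and 2 called by edgeR and 3, 0 and 4 by DESeq2. At an unadjusted p below 0.05 and a fold of at least 1.5, 5, 0 and 4 were lower. The shares of all genes are those given beside the macrophage markers. C1ra and C1s1 minus these markers stood at -0.76 ± 0.05 in WT and -0.10 ± 0.31 in C6KO in iWAT, higher in C6KO without overlap, and overlapped in eWAT and BAT. Mast cell markers summed to 53.8 to 77.0 CPM in WT and 37.0 to 62.8 CPM in C6KO in iWAT, 236 to 346 and 115 to 169 CPM in eWAT, and 33.4 to 61.3 and 24.9 to 32.6 CPM in BAT. In eWAT 2 of these 5 were called lower (0.208% of all genes). Adipocyte markers were higher in C6KO in both white depots, with sums of 20645 to 23448 against 28665 to 30029 CPM in iWAT and 8848 to 10433 against 12312 to 15571 CPM in eWAT. There 2 of these 6 were called higher (0.537% of all genes). Endothelial markers summed to 918 to 1274 CPM in WT and 1020 to 1379 CPM in C6KO in iWAT, 500.2 to 559 and 687 to 857 CPM in eWAT, and 743 to 929 and 1028 to 1037 CPM in BAT. B cell markers reached 228 CPM and overlapped between genotypes in each depot, as did neutrophil markers, which stayed at or under 16.5 CPM. Mesothelial markers were at 122 to 201 CPM in WT and 45.9 to 184 CPM in C6KO in eWAT and at or under 6.83 CPM elsewhere. In BAT they were low but did not overlap, at 1.06 to 1.20 CPM in WT and 4.80 to 5.65 CPM in C6KO. Only 1 of these 5 passed the filter there, and edgeR called it higher (0.169% of all genes). In iWAT the sums overlapped, and DESeq2 called 1 higher (1.18% of all genes). The part of these shifts in the results for the stromal genes was not tested.

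**Figure D3:**
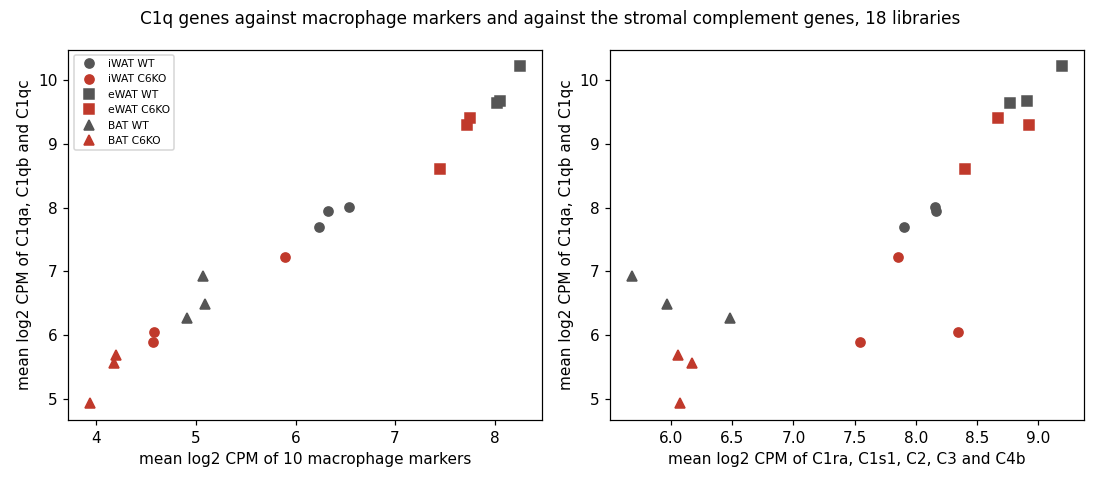
Mean log2 CPM of the C1q genes in each of the 18 libraries against the mean of 10 macrophage markers (left) and against the mean of the 5 stromal complement genes (right), with symbols for depots, grey for WT and red for C6KO. Points lie along one line on the left, while on the right the C6KO points of iWAT and BAT fall below the WT points of the same depot at similar stromal levels.

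After the mean of each depot and genotype was removed, the C1q chains and C3ar1 varied together, as did C1ra and C1s1. Over the 18 libraries Pearson's r was 0.963 to 0.988 among the C1q chains, 0.708 to 0.830 between C3ar1 and the chains, and 0.878 between C1ra and C1s1. C4b had r of 0.718 with C1ra, 0.573 with C1s1 and 0.758 with the progenitor markers, whereas the chains had r of -0.03 to 0.31 with C1ra and C1s1. C3 had r of 0.541 with C1ra and 0.690 with C1s1, against 0.236 with C4b and 0.215 to 0.325 with the chains. With the progenitor markers C3 had r of 0.330. C2 had r of 0.575 with C1ra and 0.680 with C1s1, and -0.107 to -0.299 with the chains. With the macrophage markers r was 0.818 for C1qa, 0.870 for C1qb, 0.915 for C1qc and 0.923 for C3ar1, and -0.01 to 0.29 for C1ra, C1s1, C3 and C4b and -0.39 for C2. Spearman's rho with these markers was 0.876 to 0.899 for the chains, 0.690 for C3ar1 and 0.463 for C4b, against r of 0.173 for C4b. C1ra and C1s1 had r of 0.629 and 0.717 with the progenitor markers, and 0.752 and 0.796 with the mast cell markers. C4b, C2 and C3 had r of 0.683, 0.677 and 0.384 with the mast cell markers. These are descriptions across libraries that share depth and tissue makeup, and C6KO replicate 3 of iWAT is the widest point for the macrophage genes.

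Among the 10167 genes averaging 10 CPM or more, the 5 most like the C1q mean were Lyz2 (r = 0.942), Prcp (0.929), Efhd2 (0.926), Lrrc25 (0.926) and Fcgr3 (0.918). Lyz2 encodes lysozyme and Fcgr3 an immunoglobulin receptor, both macrophage products. The 5 most like C1ra and C1s1 were R3hdm4 (0.844), Spice1 (0.843), Fbln1 (0.840), Igfbp6 (0.825) and Rnf114 (0.812), among which Fbln1 encodes the matrix protein fibulin 1 and Igfbp6 an insulin-like growth factor binding protein. When the depot mean alone was removed, 3 of the first 5 genes stayed in the list and none of the second 5. The second list then held Tpsb2 (0.85), Pdlim4 (0.83), Psip1 (0.82), Cma1 (0.82) and Mcm4 (0.81). Tpsb2 and Cma1 are among the mast cell markers used here.

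**Figure D4:**
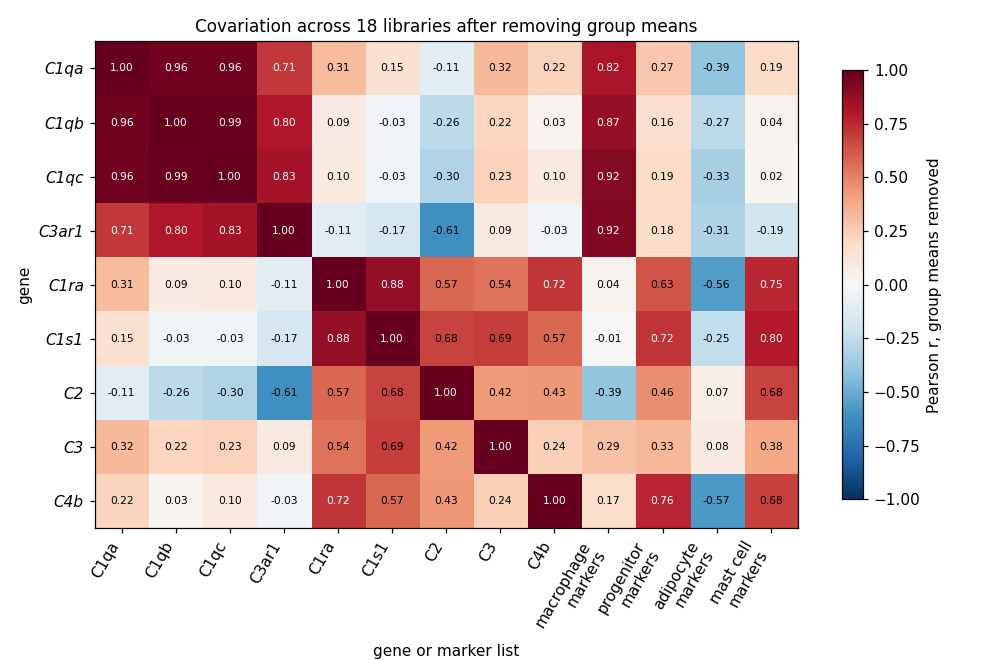
Pearson's r between the 9 complement genes, and between them and the means of 4 marker lists, over 18 libraries after the mean of each depot and genotype was removed. The C1q chains and C3ar1 form one block with the macrophage markers, and C1ra and C1s1 vary together. C4b has its highest r with the progenitor markers, and C2 and C3 have theirs with C1s1.

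The rest of the complement system was read from 43 further genes, of which 31 passed the filter in iWAT, 33 in eWAT and 25 in BAT. edgeR called none of them in iWAT (7 lower and 3 higher at an unadjusted p below 0.05 and a fold of at least 1.5, 5 lower by DESeq2), none in eWAT (1 lower and 4 higher, 3 higher by DESeq2), and 3 lower and none higher in BAT (7 lower and 2 higher, and 5 lower and 2 higher by DESeq2). Their median log2 fold changes were -0.23, -0.13 and -0.38 for iWAT, eWAT and BAT. Among all genes tested, edgeR called 0.0206%, 0.208% and 1.07% as decreases in that depot order, and 0.00688%, 0.537% and 0.169% as increases. The shares passing the unadjusted p and the fold were 6.72%, 2.79% and 6.27% for decreases, and 2.61%, 4.2% and 2.62% for increases. With DESeq2 the shares were 3.53%, 1.22% and 2.62% for decreases, and 1.18%, 2.77% and 1.05% for increases. Without iWAT C6KO replicate 3, edgeR called 9 lower and 1 higher (Cfd) in iWAT, where 6.43% and 2.21% of genes were called. The 3 called genes were receptors. Itgax, the alpha chain of complement receptor 4, fell 8.98-fold in BAT, from 17.1, 16.8 and 16.8 CPM to 2.13, 2.4 and 1.07 CPM (log2 fold change -3.17 ± 0.31, adjusted p = 0.00388). Itgb2, the beta chain shared by complement receptors 3 and 4, fell from 35.5, 42.7 and 31.1 CPM to 9.22, 7.54 and 11.2 CPM (-1.97 ± 0.21, 0.00463), and C5ar1, the C5a receptor, from 45.4, 30.1 and 37.2 CPM to 17.5, 9.11 and 10.03 CPM (-1.62 ± 0.28, 0.0298). C5ar1 lost its call without WT replicate 1, WT replicate 3, C6KO replicate 2 or C6KO replicate 3 (adjusted p = 0.0817 to 0.139). All 7 tested receptors in iWAT, all 8 in eWAT and all 6 in BAT had lower estimates, with medians of -1.55, -0.21 and -1.52. Cd93, a surface glycoprotein of endothelium as well as myeloid cells, had log2 fold changes of -0.36 ± 0.17, -0.08 ± 0.12 and -0.31 ± 0.16.

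Cfd, the gene of factor D, was the only complement gene tested that stood above WT without overlap in all 3 depots, though it was called in none. It was at 816, 1082 and 974 CPM in WT and 2753, 6601 and 1158 CPM in C6KO in iWAT (log2 fold change 1.87 ± 0.59, adjusted p = 0.214), with replicate 3 again the C6KO library nearest to WT. In eWAT it was at 146, 196 and 153 CPM in WT and 249, 285 and 388 CPM in C6KO (0.90 ± 0.18, 0.0571). In BAT it was at 501, 400.4 and 343 CPM in WT and 710.0, 1137 and 1753 CPM in C6KO (1.53 ± 0.32, 0.0643), and DESeq2 called it higher in eWAT and BAT. Cfb, the gene of factor B, overlapped in iWAT (-0.07 ± 0.13) and eWAT (-0.01 ± 0.20) and in BAT was at 32.3, 72.3 and 36.1 CPM in WT against 15.6, 23.2 and 21.4 CPM in C6KO (-1.22 ± 0.32, adjusted p = 0.139).

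Among regulators and terminal components edgeR called no gene in any depot. Serping1, which encodes the C1 inhibitor of C1r and C1s, had log2 fold changes of -0.33 ± 0.15, -0.38 ± 0.16 and -0.44 ± 0.23 for iWAT, eWAT and BAT. Cd59a, a membrane inhibitor of the terminal complex, was the only one of the 43 genes with an interaction called by edgeR: it was at 124, 84.7 and 109 CPM in WT and 168, 189.9 and 159 CPM in C6KO in eWAT (0.70 ± 0.15), and at 162, 121 and 139 CPM against 112, 109 and 101 CPM in BAT (-0.39 ± 0.16), a difference of 1.11 ± 0.22 with adjusted p = 0.0343 (0.485% of genes called positive). That call held in 8 of the 18 fits that left out 1 library. For the same contrast DESeq2 called Cd59a and also Cfb (adjusted p = 0.0401), C7 (0.00556), Itgax (0.000432) and Itgb2 (0.0247). Cr1l, another membrane regulator, had 0.19 ± 0.11, -0.00 ± 0.10 and -0.28 ± 0.19. Of the terminal genes, C7 had 0.72 ± 0.29, -0.53 ± 0.19 and 1.26 ± 0.36 for the same depots, and C6 had -0.60 ± 0.42, -0.13 ± 0.22 and -2.10 ± 0.81. The lectin pathway genes Colec12 and Fcna had -0.74 ± 0.22 and -0.23 ± 0.23 for iWAT, -0.35 ± 0.13 and 0.58 ± 0.40 for eWAT, and -0.85 ± 0.22 and -0.37 ± 0.49 for BAT. Among the classical pathway relatives C1rl had -0.52 ± 0.26, -0.14 ± 0.22 and 0.27 ± 0.21, and C4a -0.59 ± 0.39 in iWAT and -0.02 ± 0.43 in eWAT.

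Cfi, which encodes factor I, the protease that inactivates C3b and C4b, lies 26.1 kb from Casp6 on chromosome 3 (chr3:129836739-129875332). In eWAT it was at 2.83, 1.26 and 1.87 CPM in WT and 3.06, 18.9 and 9.63 CPM in C6KO (log2 fold change 2.41 ± 0.68, adjusted p = 0.142, and 0.000338 by DESeq2), and in iWAT at 0.824, 0.763 and 1.56 CPM against 2.02, 1.09 and 5.83 CPM (1.5 ± 0.65, 0.293). In BAT it had at most 1 count per library. The transcript listed for Cfi is not the same in all 3 tables. Factor I is a product of hepatocytes, and the hepatocyte markers summed to 10.2 to 15.3 CPM in WT and 29.1, 76.7 and 87.7 CPM in C6KO in eWAT, and to 18.02, 11.7 and 52.3 CPM in WT and 47.5, 45.6 and 267 CPM in C6KO in iWAT. In both depots the C6KO library with the least Cfi had the lowest marker sum among the C6KO libraries. The C6KO library with the most Cfi had the highest sum in iWAT but not in eWAT. There the library at 18.9 CPM of Cfi had markers at 76.7 CPM, and the one at 9.63 CPM had 87.7 CPM. The part of the marker shift in the Cfi values was not tested.

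**Figure D5:**
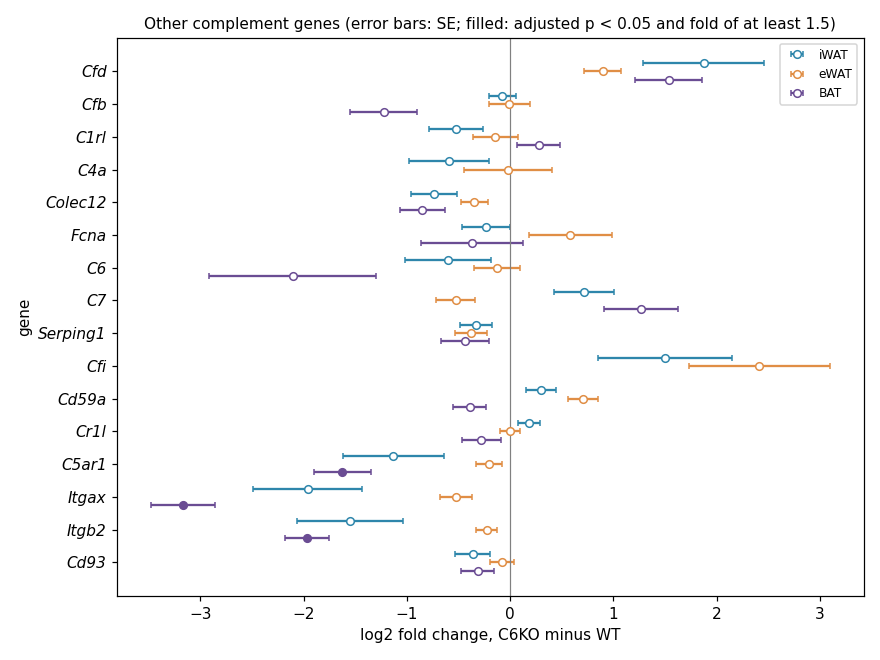
Log2 fold change of C6KO against WT for the other complement genes named in the text, in iWAT, eWAT and BAT, with the SE as error bars and filled points for called genes. The filled points are C5ar1, Itgax and Itgb2 in BAT, and Cfd lies above 0 in each depot.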

How the data were processed

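RNA-seq of poly(A) RNA was analysed from 18 libraries, 3 each of WT and C6KO in iWAT, eWAT and BAT. The values are raw counts per gene, deposited as 1 table per depot. Per the study's methods, the authors aligned reads with STAR at default settings and counted exonic reads per gene with HOMER on mm10, keeping 1 transcript a gene. Versions, the annotation release and use of strand are not given in the sources used here. Each of the 25124 genes has 1 listed transcript, which differs between tables for 2619 genes. Rows of named complement genes with another transcript in some table are Cfi and C4a.

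C6KO was compared with WT in each depot with the quasi-likelihood test of edgeR 4.0.16 on those counts (R 4.3.3, filterByExpr, TMM, robust), with Benjamini-Hochberg adjusted p over all genes tested (14533 in iWAT, 14889 in eWAT, 13595 in BAT). A gene was called at an adjusted p below 0.05 and a fold of at least 1.5. Depots and depot-by-genotype interactions were fitted in all 18 libraries (15866 genes), interactions being called on adjusted p alone. CPM used TMM library sizes, and scores and correlations log2 CPM with a prior count of 1. Levels between genes were divided by listed transcript length. The common biological coefficient of variation was 0.216, 0.191 and 0.32. Alternatives were DESeq2 1.42.0, its size factors, total counts, no filter, at least 10 counts, all 18 libraries in 1 fit, the replicate number as a block, and each library left out. Scripts were tested on simulated data.

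Named were all 9 members, Casp6, other complement genes called in a depot or interaction, the 2 of highest mean CPM in each role and any within 1 Mb of Casp6, the 2 highest markers of lists, and the 5 genes most like each member group. One gene that this rule names is not reported here. The members, gene lists and tests were chosen with earlier results of these data known. Promoters came from RefSeq, and shared windows from transcripts of a GENCODE release.

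Same-numbered WT and C6KO libraries correlated at -0.02 to 0.06 (iWAT), 0.02 to 0.13 (eWAT) and -0.35 to -0.04 (BAT) after group means were removed, so the numbers were not taken to pair them. Those of WT iWAT and WT eWAT correlated at 0.14 to 0.32, each above 0.1, although the labels name no shared mouse. For C6KO iWAT and eWAT the range was -0.10 to 0.39. Between iWAT and BAT it was 0.02 to 0.15 in WT and 0.03 to 0.22 in C6KO. Between eWAT and BAT it was -0.04 to 0.05 in WT and -0.14 to 0.06 in C6KO. The fit of all 18 libraries has no block and takes them as independent. For the WT depot contrasts, a block of same-numbered libraries across depots was an alternative. For the interactions, the only block tried tied WT and C6KO libraries within a depot. A column was assigned to a library by its table's depot and its name.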

Additional observations from a re-analysis of the deposited data

Results flagged for a closer look

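The C6KO effect on C3 differed between depots by the interaction test in the fit of all 18 libraries. It was higher in BAT than in iWAT by 1.90 on the log2 scale (1.09 against -0.82 in the fits of each depot, edgeR adjusted p = 0.0122), with C3 above WT in 3 of 3 C6KO libraries in BAT and below WT in 3 of 3 in iWAT. DESeq2 gave adjusted p = 5.6e-07 for the same difference. The effect in eWAT was below that in BAT, with a difference of -1.53 (adjusted p = 0.0340, and 0.000113 by DESeq2). The effect on Cd59a was higher in eWAT than in BAT by 1.11 (0.70 against -0.39, adjusted p = 0.0343), with C6KO above WT without overlap in eWAT and below WT without overlap in BAT. This call was lost in 10 of the 18 fits that left out 1 library and with the replicate block within depot (adjusted p = 0.0873). These contrasts share the BAT libraries. Dixon's gap test was not applied within groups, which hold 3 libraries each.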

How the results depend on the processing

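Direction and side of the threshold held for most values, counting genes called in neither fit. Where they did not hold, the cause was not tested. The member calls in BAT held less often. Those of C1qc and C3 were each lost in 5 of the 6 fits that left out 1 library, and that of C3ar1 in 2. The C3 difference between eWAT and BAT lost its call in 11 of 18 such fits, and that between BAT and iWAT in 1. DESeq2 called more genes than edgeR: it called 4 members lower in iWAT, 3 members lower in eWAT and 4 members lower in BAT. Of the other complement genes it called 5 lower in iWAT, 3 higher in eWAT, and for BAT 5 lower and 2 higher. Over all genes DESeq2 called 505 against 3 lower in iWAT, and 189 against 31 lower and 429 against 80 higher in eWAT. For BAT it called 389 against 145 lower and 156 against 23 higher. In iWAT the genes called lower numbered 308 with all 18 libraries in one fit, 54 with the replicate block and 951 without C6KO replicate 3. With all 18 libraries in one fit, 3 members were called lower in iWAT. Of the other complement genes 4 were lower and 1 higher there (1.94% and 0.366% of all genes). For BAT that fit called 5 of the other complement genes lower (2.71% of all genes), and C1qc was no longer called (-1.22, adjusted p = 0.0560). The replicate block tied same-numbered WT and C6KO libraries within a depot. With it, iWAT had 1 member (C1qa, -1.47) and 1 other gene lower (0.372% of all genes). In eWAT 3 members were lower (the C1q chains, -0.69 to -0.80) and 2 other genes higher (Cfd and Cd59a), against 0.779% and 2% of genes. BAT had 0 members higher with this block (C3 1.10, adjusted p = 0.0822), against 0.0883% of genes. The eWAT against BAT difference had 0 members negative (C3 -1.54, adjusted p = 0.0514) and Cd59a at 1.10 (0.0873). No fit of the interactions tied same-numbered libraries across depots. A block that did so within each genotype changed no count of calls between WT depots. With no filter on low counts, 2 other genes were called higher in eWAT (1.14% of all genes) and 1 in BAT (0.248%), and with at least 10 counts 1 in BAT (0.293%). With depot means alone removed, the genes most like the C1q genes kept 3 of 5 and those most like C1ra and C1s1 kept 0.

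Signs turned where estimates lay near 0. In iWAT C1s1 was at -0.048 with total counts and -0.014 with the replicate block, in eWAT Cr1l at 0.0068 with DESeq2 and with its size factors, and in BAT C2 at -0.00702 with total counts. For the BAT against iWAT difference C3ar1 was at 0.23 with the replicate block, and for eWAT against BAT C1s1 was at -8.59e-05 with DESeq2, -0.000634 with its size factors and -0.0101 with total counts.

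With 1 library left out, the members called lower numbered 0 to 4 in iWAT and 0 to 3 in BAT, and those called higher in BAT 0 to 1. The other complement genes called lower numbered 0 to 9 in iWAT and 0 to 1 in eWAT, and those called higher 0 to 1 in iWAT and 0 to 1 in BAT. Member interactions called positive numbered 0 to 1 for eWAT against iWAT, 0 to 1 for BAT against iWAT and 0 to 1 for eWAT against BAT, where those called negative numbered 0 to 1. The log2 fold changes that turned in sign ran in iWAT from -0.43 to 0.029 for C1ra and -0.19 to 0.17 for C1s1. In eWAT they ran from -0.32 to 0.016 for C2, -0.057 to 0.33 for C4b, -0.42 to 0.028 for C1rl, -0.34 to 0.32 for C4a, -0.25 to 0.14 for Cfb, -0.35 to 0.11 for C6 and -0.021 to 0.037 for Cr1l. In BAT they ran from -0.46 to 0.045 for C1ra, -0.15 to 0.23 for C2, -0.62 to 0.34 for C4b and -0.61 to 0.45 for Fcna. The BAT against iWAT differences ran from -0.24 to 0.59 for C1qb, -0.065 to 0.76 for C1qc, -0.33 to 0.16 for C1ra, -0.13 to 0.81 for C4b and -0.46 to 0.95 for C3ar1. The eWAT against BAT differences ran from -0.028 to 0.42 for C1qa, -0.48 to 0.0056 for C1ra, -0.13 to 0.11 for C1s1, -0.37 to 0.011 for C2 and -0.20 to 0.75 for C4b. The BAT libraries hold the fewest counts and have the largest common coefficient of variation.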
